A study of Homo sapiens with 9 samples.

Results

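SOX proteins are transcription factors that bind DNA through a high mobility group domain and bend it, usually beside a partner factor. Those of the SOXB1 group, with SOX2, keep neural progenitors undifferentiated, and SOXB2 proteins such as SOX21 act against them. SOXC proteins (SOX4, SOX11, SOX12) drive the expression of neuronal genes, SOXD proteins (SOX5, SOX6) carry no activation or repression domain of their own and modulate other SOX factors, and SOXE proteins (SOX8, SOX9, SOX10) specify glia. SOX2 and SOX9 are also known from glioblastoma stem-like cells. The 10 SOX genes of neural stem, glial and neuronal lineages named here were found by gene symbol, and all 10 were present among the 22295 entries of the expression table.

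The cells were U251, an established human glioblastoma line. All 9 libraries came from cells infected with a lentivirus that also carried a fluorescent marker, 3 libraries in each of the groups sh-Luci-3d (a control sh-RNA against luciferase, 3 days after infection), sh-Ptbp1-3d (a sh-RNA against PTBP1, 3 days) and sh-Ptbp1-7d (the same sh-RNA, 7 days). PTBP1 is an RNA-binding protein that represses neuronal exons. The cells were moved to neuronal induction medium 2 days after infection, so sh-Ptbp1-7d cells had spent longer in it. No sh-Luci library of day 7 was analysed here, and time, medium and knockdown cannot be told apart in any comparison with sh-Ptbp1-7d. A single sh-RNA was used in these libraries, and the labels do not say whether the libraries of a group were separate cultures, so p-values measure the spread between libraries, which may be technical. The comparisons are called day 3 against control (sh-Ptbp1-3d with sh-Luci-3d), day 7 against day 3 (both knockdown) and day 7 against control, and they share libraries.

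In FPKM, PTBP1 averaged 115.7 ± 7.58 (SD, n = 3) in sh-Luci-3d, 63.9 ± 2.67 in sh-Ptbp1-3d and 50.5 ± 0.645 in sh-Ptbp1-7d. Its paralog PTBP2, which it represses, averaged 6.54 ± 1.68, 17.8 ± 1.34 and 27.1 ± 1.58. FPKM counts fragments per kilobase of transcript and corrects for how many fragments were mapped, so levels of different genes may be set side by side per length. VIM and CD44, listed here among neural and glioma stem genes, were high in sh-Luci-3d (4168 ± 69.7 and 182.0 ± 23.1 FPKM). GFAP, listed as astroglial, did not exceed 1.15 FPKM in any library. The sum of 9 microglial and immune markers did not exceed 0.264 FPKM. Among them, CSF1R was the highest, at 0.0356 to 0.197 FPKM, and AIF1, TYROBP and CD3E were at 0 throughout. The sum of 6 endothelial markers did not exceed 0.952 FPKM. Replicate 3 of sh-Luci-3d stood apart from the other 2 libraries of its group, with a median absolute log2 difference of 0.282 against 0.113 to 0.178 for the remaining 8 libraries. Replicate 3 of sh-Ptbp1-3d held 230 features at 5 or more times the highest of the other 8 libraries, against 17 to 37 such features in each of those. SOX11 and SOX8 were among the 230. The sequencing depth behind FPKM is unknown, so no interval for counting error is given. In bulk RNA, fewer cells of a type and less RNA per cell cannot be told apart.

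The promoter windows of SOX2, SOX21 and SOX12 are shown because these 3 genes were higher at day 7, have a single window each, and have it outside annotated exons of the gene itself, apart from the last base of that of SOX2. SOX6 has several windows, that of SOX5 reaches into an exon, and that of SOX4 lies wholly within the annotated SOX4 exon. Each is the 250 bases before the transcription start in RefSeq (GRCh38.p14), given 5′ to 3′ on the strand of the gene: chr3:181711675-181711924 (plus strand) for SOX2, chr13:94712546-94712795 (minus strand) for SOX21 and chr20:325302-325551 (plus strand) for SOX12. The SOX21 window overlaps an exon of the antisense gene SOX21-AS1. Capitals mark the CCAAT box, searched as CCAAT on both strands, which each window held once, on the opposite strand.
SOX2: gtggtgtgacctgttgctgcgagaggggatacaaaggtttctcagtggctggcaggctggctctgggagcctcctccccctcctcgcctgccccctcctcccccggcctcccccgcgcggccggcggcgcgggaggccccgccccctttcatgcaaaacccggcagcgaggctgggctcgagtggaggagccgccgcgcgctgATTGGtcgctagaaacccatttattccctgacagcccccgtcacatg
SOX21: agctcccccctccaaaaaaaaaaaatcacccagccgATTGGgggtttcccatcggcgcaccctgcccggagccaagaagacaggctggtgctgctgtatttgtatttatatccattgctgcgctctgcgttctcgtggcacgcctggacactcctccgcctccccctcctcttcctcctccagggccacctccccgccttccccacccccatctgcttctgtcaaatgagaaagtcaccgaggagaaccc
SOX12: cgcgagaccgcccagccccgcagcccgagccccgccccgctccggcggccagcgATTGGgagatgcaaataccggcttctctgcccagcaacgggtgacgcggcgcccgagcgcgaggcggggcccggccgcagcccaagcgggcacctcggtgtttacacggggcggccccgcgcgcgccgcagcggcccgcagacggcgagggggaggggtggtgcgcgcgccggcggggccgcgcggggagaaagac

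Windows were given for 6 of the 10 genes (SOX2, SOX4, SOX5, SOX6, SOX12 and SOX21), with 5 windows for SOX6. A CCAAT box was in 7 of these 10 windows, those without it being the SOX5 window and 2 of SOX6, and in 32.0% of 35116 windows of this length over all genes. The SOX hexamer AACAAT, searched on both strands, was in the SOX5 window and in 3 of the 5 SOX6 windows and in none of the windows of SOX2, SOX4, SOX12 and SOX21. It was in 8.98% of all windows. The TATA box TATAAA, searched in the same way, was in the SOX21 window, in 3 of the 5 SOX6 windows and in 10.7% of all windows. The octamer ATGCAAAT, the sequence bound by POU factors that partner SOX2, was in the SOX12 window, just after its CCAAT box, and in 1.63% of all windows. A match describes the letters of a window and is not evidence of binding.

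SOX2 was the most abundant of the 10 in every group, followed by SOX4, SOX9, SOX21, SOX12 and SOX5 in order of the group means. In sh-Luci-3d the libraries of SOX4 and SOX9, and those of SOX21 and SOX12, overlapped. In sh-Ptbp1-3d and sh-Ptbp1-7d the libraries of each of these 6 genes were apart from those of the next. SOX6 lay below 1 FPKM in all 9 libraries, and SOX8, SOX10 and SOX11 were at or near 0 in most of them. SOX2 ranked at the 97.3 percentile of the features above 0 in sh-Luci-3d, SOX9 at the 90.6 percentile and SOX5 at the 45.2 percentile.

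**Figure D1:**
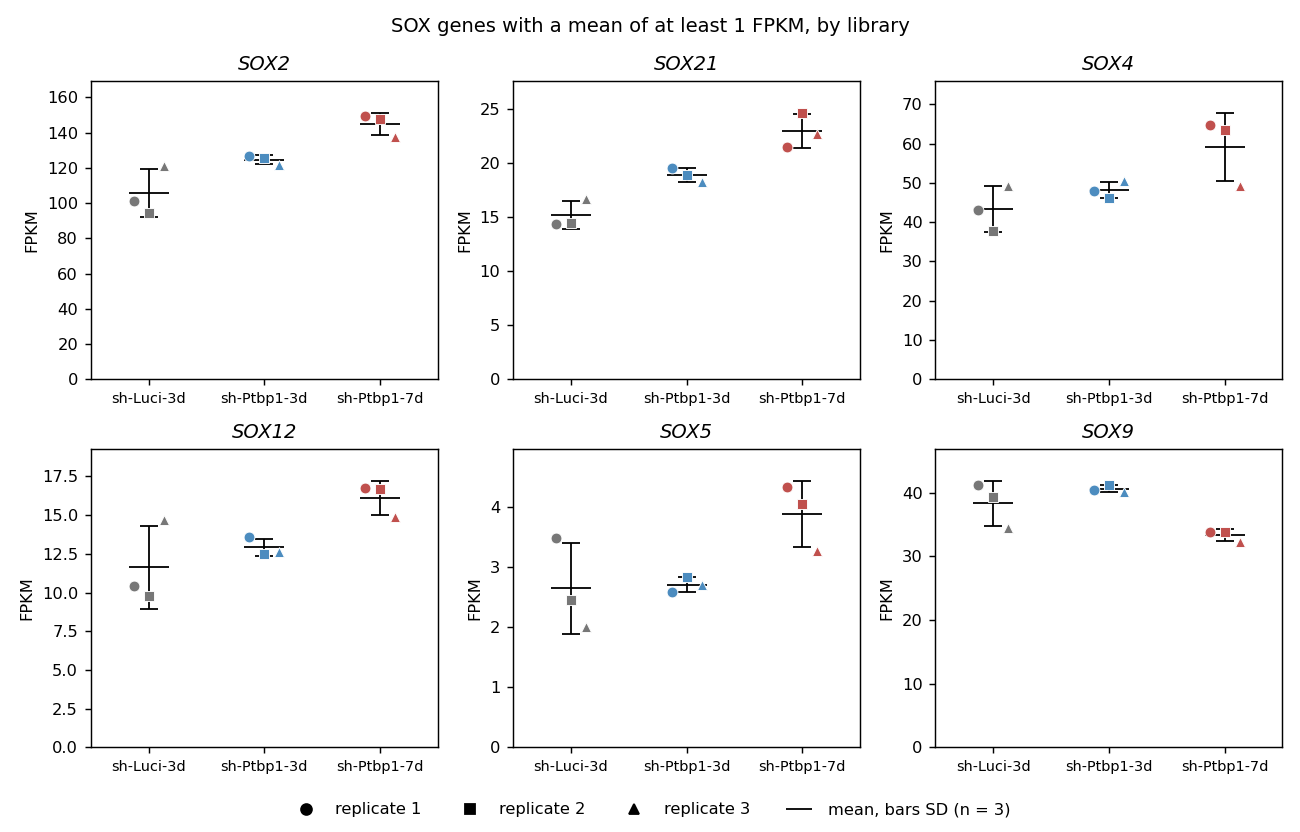
FPKM of the 6 more abundant SOX genes (mean of 1 or more), with a point for each library, a line for the group mean and an error bar for the SD (n = 3). SOX2 and SOX21 were higher in each group than in the one before without overlap, and SOX9 was lowest in all 3 sh-Ptbp1-7d libraries.

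SOX2 (chr3:181711924-181714436, plus strand) is a single-exon gene within SOX2-OT, a noncoding gene of the same strand whose exons it does not touch. It maintains pluripotent and neural stem cells. SOX2 stood at 101.3, 94.6 and 121.1 FPKM in the sh-Luci-3d libraries, at 126.4, 125.7 and 121.5 in sh-Ptbp1-3d and at 149.1, 147.7 and 137.6 in sh-Ptbp1-7d. All sh-Ptbp1-3d libraries were above all sh-Luci-3d libraries, though replicate 3 of sh-Luci-3d came close to replicate 3 of sh-Ptbp1-3d, and all sh-Ptbp1-7d libraries were higher still. For day 3 against control the log2 fold change was 0.24 (95% interval 0.040 to 0.449), which limma did not call (adjusted p = 0.623). For day 7 against control it was 0.46 (0.257 to 0.666, adjusted p = 0.00184), past the FDR of 0.01 and below a 2-fold change. It no longer passed with median-ratio scaling (adjusted p = 0.0108) or in a fit of these groups alone (adjusted p = 0.0107). For day 7 against day 3 it was 0.22 (adjusted p = 0.0733).

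SOX21 (chr13:94709622-94712399, minus strand), also of a single exon, is a repressor that counteracts SOX2 in progenitors and promotes their differentiation. It was at 14.4, 14.4 and 16.6 FPKM in sh-Luci-3d, 19.5, 18.9 and 18.2 in sh-Ptbp1-3d and 21.5, 24.6 and 22.6 in sh-Ptbp1-7d. The groups did not overlap in any comparison. The log2 fold change was 0.32 for day 3 against control (0.124 to 0.513, adjusted p = 0.474) and 0.28 for day 7 against day 3 (adjusted p = 0.0236), neither of which passed. Against sh-Luci-3d, SOX21 rose in sh-Ptbp1-7d by a log2 fold change of 0.59 (0.399 to 0.788, adjusted p = 0.00025), and this call was kept under every alternative run. SOX2 and SOX21, with opposed roles, therefore both stood higher at day 7 than in the controls.

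SOX4 (chr6:21592768-21598619, plus strand), a factor of neuronal maturation that is also active in many tumours, was at 43.2, 37.6 and 49.2 FPKM in sh-Luci-3d, 48.0, 46.2 and 50.4 in sh-Ptbp1-3d and 64.8, 63.4 and 49.2 in sh-Ptbp1-7d. Replicate 3 of sh-Ptbp1-7d lay among the day 3 libraries and replicates 1 and 2 above them. The log2 fold change in sh-Ptbp1-7d was 0.45 against sh-Luci-3d (adjusted p = 0.0113) and 0.28 against sh-Ptbp1-3d (adjusted p = 0.0754), and neither passed. Its exon overlaps AL512380.2 on the opposite strand, and whether the strand was used in counting is not given in the sources used here.

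SOX12 (chr20:325595-330224, plus strand), expressed widely in the embryo and a weaker activator than SOX4 and SOX11, was at 10.4, 9.77 and 14.7 FPKM in sh-Luci-3d, 13.6, 12.5 and 12.7 in sh-Ptbp1-3d and 16.8, 16.7 and 14.9 in sh-Ptbp1-7d. Replicate 3 of sh-Luci-3d was above every sh-Ptbp1-3d library, and the other 2 controls were below them. All sh-Ptbp1-7d libraries were above all others. The log2 fold change in sh-Ptbp1-7d was 0.49 against sh-Luci-3d (adjusted p = 0.0129) and 0.32 against sh-Ptbp1-3d (adjusted p = 0.0796), both short of the threshold.

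SOX11 (chr2:5692667-5701385, plus strand), the SOXC factor of immature neurons, was at 0 in 6 of 9 libraries. It was at 0.00583 FPKM in replicate 3 of sh-Luci-3d, and at 0.010 and 0.960 FPKM in replicates 1 and 3 of sh-Ptbp1-3d. SOX11 was thus present in amount in a single library, and it passed the filter on low values only through that library. The log2 fold change was 1.15 (SE 0.772) for day 3 against control and -1.18 for day 7 against day 3, with adjusted p of 0.788 and 0.229, and for a gene at 0 in most libraries its size depends on the pseudocount. The same library held DCX, STMN2, ELAVL3 and ELAVL4, genes of young neurons, at 2.15, 11.5, 1.47 and 0.390 FPKM, each at least 5 times the highest of the other 8 libraries. FABP7 and HES5, listed here as neural stem genes, and NDRG2, an astroglial gene, met the same rule in that library, at 15.0, 0.160 and 0.965 FPKM. So did POU3F3 and NEUROG2, at 1.06 and 0.591 FPKM. The part of this library's make-up in the SOX11 value was not tested.

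SOX5 (chr12:23529500-24562544, minus strand), with 17 annotated exons, controls the timing of neuron and oligodendrocyte production. It was at 3.48, 2.45 and 2.01 FPKM in sh-Luci-3d, 2.58, 2.84 and 2.71 in sh-Ptbp1-3d and 4.33, 4.06 and 3.26 in sh-Ptbp1-7d. Every sh-Ptbp1-7d library was above every sh-Ptbp1-3d library, while replicate 1 of sh-Luci-3d fell among those of day 7. The log2 fold change was 0.49 against sh-Ptbp1-3d (adjusted p = 0.0486) and 0.56 against sh-Luci-3d (adjusted p = 0.029), and neither passed the FDR of 0.01.

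SOX6 (chr11:15966449-16739591, minus strand), with 16 annotated exons, acts with SOX5 in the timing of glial differentiation and in cartilage. It was at 0.216, 0.183 and 0.176 FPKM in sh-Luci-3d, 0.296, 0.250 and 0.190 in sh-Ptbp1-3d and 0.702, 0.654 and 0.417 in sh-Ptbp1-7d. The day 7 libraries were above all others, with replicate 3 nearest to day 3. Against sh-Luci-3d the ratio of means was 3.09 and the log2 fold change 1.22 (0.633 to 1.81, adjusted p = 0.00307), past the FDR and the 2-fold threshold. Against sh-Ptbp1-3d it was 0.99 (0.396 to 1.58, adjusted p = 0.0104). A fold change on the log2(FPKM + 0.1) scale understates the change of a gene this low, and the 2-fold call was lost with a pseudocount of 1 or quantile normalization. It also fell short of the FDR without replicate 2 of sh-Luci-3d (adjusted p = 0.0112) and without replicate 1 or replicate 2 of sh-Ptbp1-7d (adjusted p = 0.0169 and 0.0165). Its exons overlap those of C11orf58 on the opposite strand, which was at 23.9 to 27.6 FPKM in the 9 libraries.

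SOX9 (chr17:72121020-72126420, plus strand), with 3 annotated exons, starts gliogenesis and maintains neural stem cells. It was at 41.3, 39.3 and 34.4 FPKM in sh-Luci-3d, 40.5, 41.3 and 40.2 in sh-Ptbp1-3d and 33.8, 33.9 and 32.3 in sh-Ptbp1-7d. The day 7 libraries were below all others, by the least against replicate 3 of sh-Luci-3d. The log2 fold change of sh-Ptbp1-7d was -0.29 against sh-Ptbp1-3d (-0.463 to -0.108, adjusted p = 0.0126) and -0.20 against sh-Luci-3d (adjusted p = 0.0622), and neither passed. SOX9 was the single gene of the 10 whose libraries lay lower without overlap in either comparison.

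The other SOXE genes were close to 0. SOX10 (chr22:37970686-37987422, minus strand), of the oligodendrocyte and neural crest lineages, had 0.0214, 0.0900 and 0.146 FPKM at day 7 of the knockdown and at 0 in 4 of the 6 libraries of day 3, with 0.0208 in replicate 3 of sh-Luci-3d and 0.0401 in replicate 1 of sh-Ptbp1-3d. The day 7 libraries lay above all controls, by little in replicate 1, and overlapped sh-Ptbp1-3d. Its exons overlap POLR2F on the opposite strand, which was at 7.98 to 28.5 FPKM. SOX8 (chr16:981808-986979, plus strand), which acts beside SOX10 in oligodendrocytes, was at 0.0170 FPKM in replicate 3 of sh-Luci-3d, at 0.112 in replicate 3 of sh-Ptbp1-3d and at 0 in the other 7 libraries. Neither had a mean of 0.1 FPKM, so neither was tested.

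**Figure D2:**
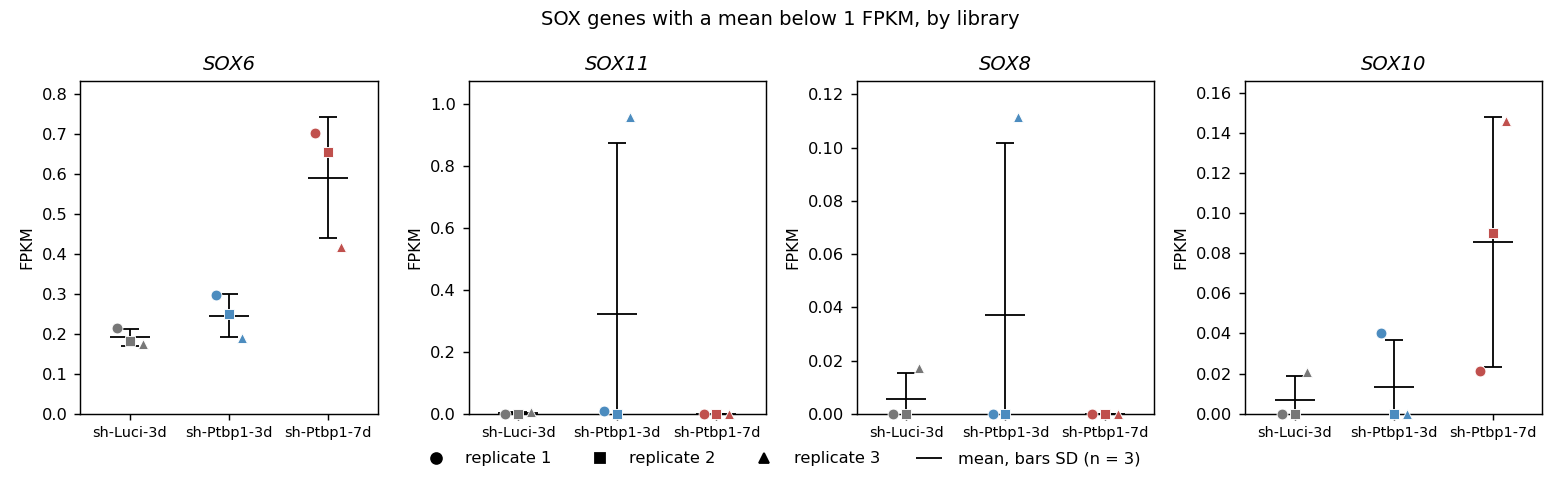
FPKM of the low SOX genes, with a point for each library, a line for the group mean and an error bar for the SD (n = 3), drawn down to 0 at the lowest. SOX6 was higher in all 3 sh-Ptbp1-7d libraries than in all others, and the SOX11 and SOX8 means of sh-Ptbp1-3d rest on replicate 3.

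In all, 8 of the 10 genes could be tested by limma. SOX11 was among the 8 only through replicate 3 of sh-Ptbp1-3d, and it was not called in any comparison. For day 3 against control none passed the FDR of 0.05, against 0.0322% of all features tested, 0.0129% being past the 2-fold threshold too. Unadjusted p was under 0.05 for 2 of the 8 (SOX2 and SOX21), against 7.24% of features. The same 2 genes had libraries that did not overlap, both higher, against 10.8% of features in either direction (5.86% higher and 4.93% lower). The median log2 fold change of the 8 was 0.205, and that of all features 0.00995. For the 6 genes averaging 1 FPKM or more, which leaves SOX11 out, it was 0.167, against 0.00814 for such features.

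None of the 8 passed for day 7 against day 3 at the FDR of 0.01, against 35.8% of features, and 14.2% of features were past the 2-fold threshold as well. Unadjusted p was under 0.05 for 7 of the 8, against 56.3% of features. The libraries did not overlap for 6 of the 8 (SOX2, SOX21, SOX12, SOX5 and SOX6 higher and SOX9 lower). Over the table this held for 62.3% of features (35.3% higher and 27% lower). The median log2 fold change of the 8 was 0.280 and that of all features 0.0924. For the 6 genes averaging 1 FPKM or more it was also 0.280, against 0.0684 for such features.

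Against the controls, 3 of the 8 (SOX2, SOX21 and SOX6) passed the FDR at day 7, all higher. This was 37.5% of the 8, near the 35.6% of all features (20.6% higher). SOX6 alone also passed the 2-fold threshold, as did 14.6% of features (8.93% higher). Libraries did not overlap for 6 of the 8 (SOX2, SOX21, SOX4, SOX12 and SOX6 higher and SOX9 lower), against 55.9% of features (32.8% higher and 23.1% lower). The median log2 fold change of the 8 was 0.476 and that of all features 0.0993. For the 6 genes averaging 1 FPKM or more it was also 0.476, against 0.0781 for such features.

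**Figure D3:**
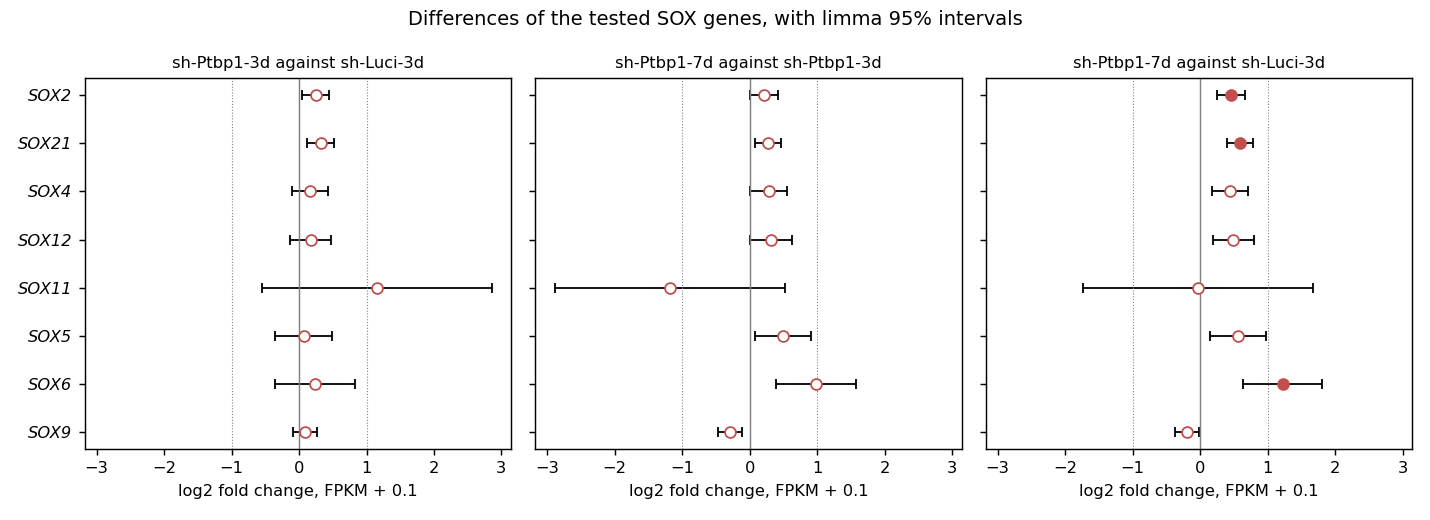
Log2 fold change of each tested SOX gene on the log2(FPKM + 0.1) scale, with its 95% interval from limma, for the 3 comparisons. Filled points passed the FDR of the comparison and dotted lines mark a 2-fold change: SOX2, SOX21 and SOX6 passed for day 7 against control, and SOX9 lay below 0 in both day 7 comparisons.

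Without replicate 3 of sh-Luci-3d, 3 genes passed the FDR of 0.05 for day 3 against control. These were SOX2 with a log2 fold change of 0.35 (adjusted p = 0.0145), SOX21 with 0.39 (adjusted p = 0.0197) and SOX12 with 0.35 (adjusted p = 0.0374). Over the whole table, the features past the FDR and the 2-fold threshold went from 2 to 59 without that library. The calls of SOX2, SOX21 and SOX12 at day 3 thus depended on whether this control library was kept. It was the highest of its group for 7 of the 10 genes, of which SOX8, SOX10 and SOX11 were near 0. For the other 3 (SOX5, SOX6 and SOX9) it was the lowest. At day 7 against control, 6 of the 8 tested genes passed the FDR without it, in place of 3.

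Each gene was also expressed as a percent of the summed FPKM of the 10, which does not depend on the scaling of a library. The sum was 216.9 ± 20.01 FPKM in the sh-Luci-3d libraries (SD, n = 3), 248.5 ± 2.07 in sh-Ptbp1-3d and 280.8 ± 17.7 in sh-Ptbp1-7d. SOX2 made up 48.6%, 50.1% and 51.6% of it on average, SOX4 19.9%, 19.4% and 21.0%, and SOX21 6.99%, 7.60% and 8.17%. SOX9 held 19.3%, 19.8% and 14.5% in the sh-Luci-3d libraries, 16.1%, 16.7% and 16.3% in sh-Ptbp1-3d and 11.6%, 11.7% and 12.4% in sh-Ptbp1-7d. Its share in sh-Ptbp1-7d was below that of every day 3 library, whereas replicate 3 of sh-Luci-3d lay below all sh-Ptbp1-3d libraries. The ratio of SOX2 to SOX9, chosen after the values were seen, was 2.45, 2.41 and 3.52 in sh-Luci-3d, 3.12, 3.05 and 3.02 in sh-Ptbp1-3d and 4.41, 4.36 and 4.27 in sh-Ptbp1-7d. The day 7 libraries were above all others. No test was made of the shares or of the ratio.

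**Figure D4:**
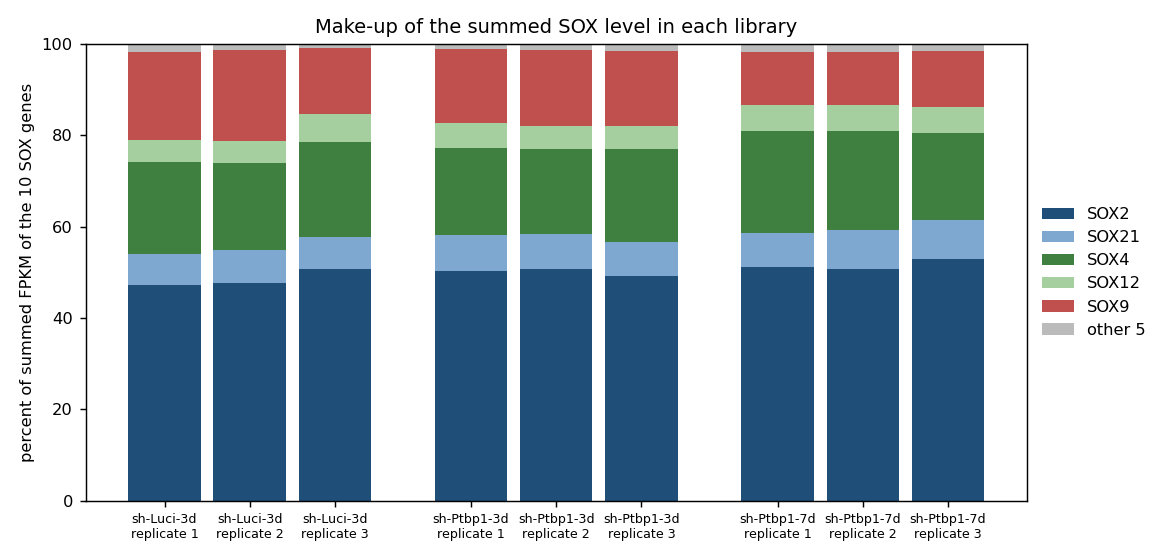
Percent of the summed FPKM of the 10 SOX genes taken by each gene in each of the 9 libraries. SOX2 averaged 48.6% to 51.6% in the 3 groups, and SOX9 held 11.6% to 12.4% in the sh-Ptbp1-7d libraries.

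Of 9 further SOX genes in the table, 5 could be tested. SOX3, the SOXB1 paralog of SOX2, rose from 3.601 ± 0.0789 FPKM (SD, n = 3) in sh-Ptbp1-3d to 10.2 ± 0.385 in sh-Ptbp1-7d, a log2 fold change of 1.48 (adjusted p = 7.01e-07). SOX2 stood at 34.6 times the level of SOX3 in sh-Ptbp1-3d and at 14.2 times in sh-Ptbp1-7d. SOX18, of blood and lymph vessels, fell from 6.82 ± 1.13 to 1.17 ± 0.554 FPKM (log2 fold change -2.53, adjusted p = 6.20e-05). SOX15 also fell at the FDR alone (log2 fold change -0.88, adjusted p = 0.00736). SOX13, the SOXD paralog of SOX5 and SOX6, averaged 20.8, 20.7 and 22.9 FPKM in the 3 groups, above both of them, and did not pass. SOX14 and SOX17 were at 0 in all libraries. The calls past the 2-fold threshold between day 3 and day 7 were thus those of SOX3 and SOX18, outside the 10.

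**Figure D5:**
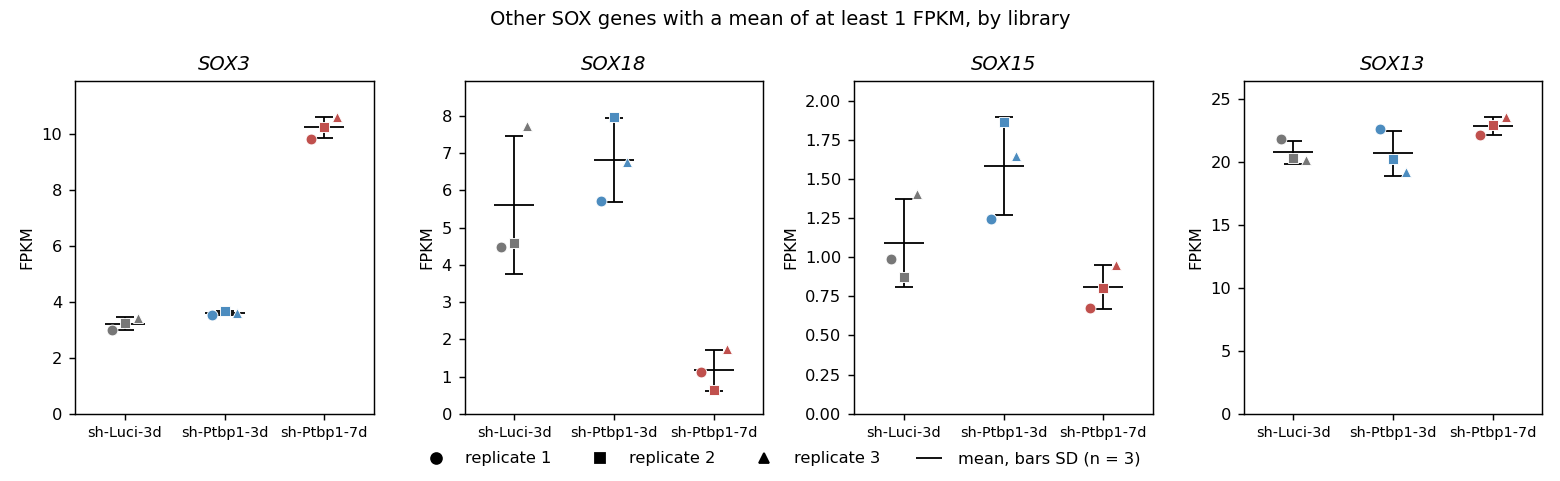
FPKM of SOX3, SOX18, SOX15 and SOX13, with a point for each library, a line for the group mean and an error bar for the SD (n = 3). SOX3 was higher and SOX18 lower in all 3 sh-Ptbp1-7d libraries than in all day 3 libraries.

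The genes most like each SOX gene over the 9 libraries were named by Pearson's r of log2(FPKM + 0.1) among 11339 genes that averaged 1 FPKM or more. They were ARHGAP23 (r = 0.997), MGAT2 and METRNL for SOX2, IER2 (0.976), TRIM8 and HOXB13 for SOX21, and GATAD2A (0.979), COL4A2 and MAGI1 for SOX4. For SOX12 they were ZNF316 (0.992), NCKAP5L and HSPA1A, for SOX5 SIK2 (0.982), FBXW11 and ZNF431, and for SOX9 AP3M2 (0.986), TWSG1 and USP13. ARHGAP23 was at 9.01 ± 1.14, 10.4 ± 0.167 and 12.3 ± 0.381 FPKM in the controls, the day 3 and the day 7 knockdown (SD, n = 3). AP3M2 was at 11.4 ± 1.30, 11.9 ± 0.140 and 9.65 ± 0.111 FPKM, the same order as SOX9. The points are libraries of 3 groups that share groups and spread, so r is a description.

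Factors that bind DNA beside SOX proteins, and genes of the lineages that SOX proteins specify, were counted as lists. None of them held a gene past the FDR for day 3 against control. For day 7 against day 3, 3 of 11 tested partner factors rose and 1 fell, where 20.3% of all features rose and 15.5% fell. SALL2, a zinc finger factor of neural progenitors, rose from 0.203 ± 0.0639 to 1.65 ± 0.118 FPKM (log2 fold change 2.55, adjusted p = 5.00e-05). POU3F2, the POU partner of SOX2 in neural cells, rose by a log2 fold change of 0.87 (adjusted p = 9.62e-06). POU2F1 rose and NFIX, a factor of gliogenesis, fell by 0.77 on the log2 scale (adjusted p = 3.88e-05). SALL2, POU3F2, POU2F1 and NFIX were named after their values were seen. The median log2 fold change of the 11 was 0.0595, against 0.0924 for all features. POU3F3 (log2 fold change -1.11, adjusted p = 0.2115) passed the filter on low values only through replicate 3 of sh-Ptbp1-3d. It is among the 11, so their median rests in part on that library and is not read as a difference from all features.

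Of 13 tested neural and glioma stem genes, 1 rose and 5 fell for day 7 against day 3, with a median log2 fold change of -0.35 (-0.16 against the controls). Over all features 20.3% rose and 15.5% fell, and the counts of the lists that follow stand beside the same shares. VIM, an intermediate filament gene, fell from 4381 ± 150.2 to 1169 ± 77.4 FPKM (log2 fold change -1.91, adjusted p = 9.79e-08), and L1CAM, CD44 and ID1 fell as well. The gene that rose was MSI1, an RNA-binding protein of neural stem cells (log2 fold change 2.85, adjusted p = 0.000328). SOX2 was not called for day 7 against day 3 (adjusted p = 0.0733). It was higher in the same libraries in which VIM, L1CAM, CD44 and ID1 were lower and MSI1 was higher. Of 10 astroglial genes, 4 rose and 2 fell. SLC1A3, a glutamate transporter, rose from 2.02 ± 0.412 to 7.66 ± 0.401 FPKM (log2 fold change 1.89, adjusted p = 9.32e-06). S100B (log2 fold change 2.08, adjusted p = 0.00202), GJA1 (0.89, adjusted p = 7.05e-05) and GLUL (0.54, adjusted p = 0.00368) rose as well. Those that fell were FGFR3 (log2 fold change -0.85, adjusted p = 0.00343) and CLU (-0.467, adjusted p = 0.00424). SOX9 stood lower in the same libraries and was not called (adjusted p = 0.0126). Of 13 neuronal genes of the SOXC path, 3 rose and 5 fell. Their median log2 fold change was -1.14 for day 7 against day 3, which is the value of ELAVL3, and -0.083 against the controls. DCX, STMN2 and ELAVL3 passed the filter on low values only through replicate 3 of sh-Ptbp1-3d, and none of the 3 was called. TUBB3, a neuronal tubulin and known SOXC target, fell from 316.9 ± 4.57 to 118.2 ± 7.98 FPKM (log2 fold change -1.42, adjusted p = 6.91e-07), NEFL, a neurofilament, fell by 1.22 on the log2 scale (adjusted p = 3.65e-07), and MEX3A, an RNA-binding protein, rose by 1.56 (adjusted p = 5.65e-05). MAP2, a microtubule protein of mature neurons named after its values were seen, rose from 20.3 ± 3.25 to 38.9 ± 4.22 FPKM (log2 fold change 0.94, adjusted p = 0.000581). STMN3 passed the 2-fold threshold against sh-Luci-3d with a log2 fold change of 1.11.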

How the data were processed

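The 9 RNA-seq libraries of U251 cells were grouped by their labels into 3 groups of 3. What the authors deposited is an FPKM value for each of 19932 gene symbols and 2363 StringTie loci in each library. The submitters' processing notes name HISAT2 and GRCh38, and further settings are not given in the sources used here. FPKM sums were 367412 to 404922 per library, and depth is unknown. The coordinates the authors deposited for the assembled loci served to look for loci at the SOX genes, and 0 were found. Gene positions are from GENCODE v29 (GRCh38), which holds 97.6% of the symbols.

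FPKM was put on the scale log2(FPKM + 0.1). The 15551 features averaging 0.1 FPKM or more were fitted with limma 3.58.1 (R 4.3.3), all 9 libraries in a single model of the 3 groups with a trend, and Benjamini-Hochberg adjustment covered all of them. A call needed an FDR under 0.05 (sh-Ptbp1-3d against sh-Luci-3d) or 0.01 (comparisons with sh-Ptbp1-7d), alone or together with more than a 2-fold change. An exact permutation test of 3 against 3 libraries cannot go below 0.1 (two-sided). The model was tested on simulated data.

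The SOX genes and lists were chosen with earlier results of these data known. Named were the 10 SOX genes, PTBP1 and PTBP2, up to 4 genes per list and comparison with the largest change among called genes averaging 1 FPKM or more, and the 3 genes most like each SOX gene. Cell type markers (1 of which is not reported here), genes overlapping a SOX gene and further SOX genes are also named. DCX, STMN2, ELAVL3, ELAVL4, SALL2, POU3F2, POU2F1, NFIX, SOX13, SOX14, SOX15, SOX17, GFAP, MAP2, MSI1, CNP, PDGFRA, MYRF, TFAP2A, FGFR3, CLU and COL11A1 are outside that rule and were chosen after their values were seen. The same holds for POU3F3, NEUROG2, FABP7, HES5, NDRG2, S100B, GJA1, GLUL, NKX2-2 and CSF1R. Alternatives were pseudocounts of 1 and 0.01, no filter and a filter at 1 FPKM, TPM, median-ratio scaling, quantile normalization, leaving out the assembled loci, the 2 groups alone, no trend, the replicate block and leaving out each library. Correcting for GC and transcript length was added after seeing the data. Figures were drawn with matplotlib 3.10.9.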

Additional observations from a re-analysis of the deposited data

How the results depend on the processing

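Of 495 values of single SOX genes under the alternatives, 453 kept their direction and side of the FDR, 5 no longer passed, 35 passed where they had not, and 2 reversed: SOX5 for day 3 against control was -0.107 without replicate 3 of sh-Luci-3d (-0.107 to 0.276 leaving out any library), and SOX11 for day 7 against control was 0.0597 with the GC and length correction. That correction had values for 85.7% of features. In the comparisons with sh-Ptbp1-7d, SOX2, SOX21, SOX4, SOX12, SOX5 and SOX6 stayed higher and SOX9 lower under all alternatives run. SOX2 for day 7 against control did not pass with median-ratio scaling (adjusted p = 0.0108) or with the 2 groups alone (adjusted p = 0.0107).

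Features past the FDR and 2-fold thresholds for day 3 against control numbered 2. They were 1 with a pseudocount of 0.01, a filter at 1 FPKM, TPM, median-ratio scaling, quantile normalization or no trend, 0 with the 2 groups alone, 4 with the GC and length correction, and 0 to 59 leaving out a library (59 without replicate 3 of sh-Luci-3d). With a pseudocount of 1 the 2211 features of day 7 against day 3 became 1255 and the 2271 against control became 1269.

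SOX genes past the FDR alone for day 3 against control numbered 0, and 0 to 3 leaving out a library. For day 7 against day 3 they numbered 0, but 1 with a pseudocount of 1, no filter, median-ratio scaling, quantile normalization, assembled loci left out or no trend, 2 with the 2 groups alone or the GC and length correction, 3 with TPM, and 0 to 4 leaving out a library (4 without replicate 3 of sh-Luci-3d, which is in neither group but enters the common spread). Past the fold threshold too, 0 became 1 (SOX6) with TPM or the GC and length correction, and 0 to 1 leaving out a library. For day 7 against control the 3 became 5 with TPM, 7 with the GC and length correction, 4 with quantile normalization, 2 with the 2 groups alone, and 2 to 6 leaving out a library (6 without replicate 3 of sh-Luci-3d). Past the fold threshold too, SOX6 gave 1, which was 0 with a pseudocount of 1, a filter at 1 FPKM (SOX6 is then not tested) or quantile normalization, and 0 to 1 leaving out a library (0 without replicate 2 of sh-Luci-3d or replicate 1 or 2 of sh-Ptbp1-7d). The causes were not tested.

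Libraries of the same replicate number did not deviate together (correlations of -0.0317 to 0.0512). The labels do not say whether the numbers pair them, and with 3 libraries per group this check cannot exclude it. With the replicate block, 0 features passed for day 3 against control, and 3 SOX genes passed the FDR for day 7 against control. Scaling shifted the median log2 difference of all features for day 7 against day 3 by 0.103 with TPM, -0.0819 with median-ratio scaling and -0.101 with quantile normalization.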

Other observations

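Lineage genes other than those above also differed for day 7 against day 3 by limma. Of 8 tested oligodendrocyte lineage genes 3 rose and 1 fell, where 20.3% of all features rose and 15.5% fell. CNP, a myelin enzyme gene, rose by a log2 fold change of 0.69 (adjusted p = 0.000617) and PDGFRA, the receptor of oligodendrocyte precursors, by 0.63 (adjusted p = 0.00596). NKX2-2 rose the most, from 0.4125 ± 0.165 to 1.38 ± 0.0735 FPKM (log2 fold change 1.58, adjusted p = 0.000353). MYRF, the regulator of myelin genes that SOX10 induces, fell from 0.502 ± 0.0746 to 0.199 ± 0.0415 FPKM (SD, n = 3; log2 fold change -1.01, adjusted p = 0.00429). MOG and MAG were at 0 in all libraries. MSI1, the stem gene named above, rose from 0.129 ± 0.119 to 1.37 ± 0.138 FPKM (log2 fold change 2.85, adjusted p = 0.000328).

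Of 6 tested cartilage genes of the SOX5, SOX6 and SOX9 trio 1 rose and 1 fell, near the 20.3% and 15.5% of all features. COL9A3, a cartilage collagen, fell from 3.28 ± 0.198 to 0.191 ± 0.0611 FPKM (log2 fold change -3.56, adjusted p = 7.34e-07). COL11A1, another collagen gene of the list, rose from 0.422 ± 0.174 to 1.83 ± 0.427 FPKM (log2 fold change 1.91, adjusted p = 0.000143). Of 6 neural crest and melanocyte genes 1 rose, TFAP2A, from 38.4 ± 1.61 to 61.6 ± 2.18 FPKM (log2 fold change 0.68, adjusted p = 1.43e-05). The endothelial markers held 1 gene past the FDR of 2 tested, lower, and the immune markers 0 of 1, against 35.8% of all features.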
